A study of Drosophila melanogaster and Drosophila pseudoobscura and Drosophila virilis with 4 samples.

Results

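Open chromatin was compared between 2 laboratory strains of *Drosophila melanogaster*, Canton-S and FRT82, in the eye-antennal imaginal disc. All 19424 FAIRE-Seq peaks of the deposited table were compared, of 19424 in the whole series, and 2 of its 4 libraries hold the comparison. The other 2 libraries come from *D. pseudoobscura* and *D. virilis*, both with a genotype labelled wild-type. They are used only to describe the peaks that set the strains apart. Canton-S is a wild-type laboratory stock, and its genotype is labelled Canton S. FRT82 is labelled P{neoFRT}82B: it carries a P-element with a target site of the FLP recombinase near the base of chromosome arm 3R, a stock made for the production of mosaic clones, and otherwise has its own genetic background. Both were sampled as wandering larvae of the third instar, grown at 25 degrees Celsius on standard food, and neither was treated. Each strain has 1 library, so a difference between the strains and a difference between the libraries cannot be told apart, and no p-values are given. How many larvae were pooled for a library is not given in the sources used here.

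FAIRE-Seq recovers from cross-linked, sonicated chromatin the DNA that stays in the aqueous phase after phenol extraction, which is DNA with few bound nucleosomes. Active promoters and enhancers are the usual source of such peaks. The eye-antennal disc is the larval epithelium that gives rise to the adult eye, antenna and head capsule, and in the wandering larva its eye field holds both undifferentiated progenitors and differentiating photoreceptors. A peak height is therefore a mean over many cell types. Strains of one species differ at many single bases, insertions and transposable elements, and a comparison between strains also serves as the scale against which differences between species are read.

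Heights are the deposited RPKM, read counts scaled by peak length and library depth that the authors had also normalized between libraries. A log2 ratio is the FRT82 height over the Canton-S height, so that positive values are higher in FRT82. Reads over the peaks summed to 3407230 in Canton-S and 1386805 in FRT82, a ratio of 2.46. The reads of a peak had a median of 113 in Canton-S and 44 in FRT82, and 3 peaks in Canton-S and 796 in FRT82 had fewer than 10 reads. The FRT82 count thus sets most of the counting error. For each peak a 95% interval of the log2 ratio was derived from the exact binomial (Clopper-Pearson) interval of the share of its reads that came from FRT82. These intervals cover counting error only, since PCR copies and the preparation of each library add variation that 1 library cannot show.

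Most peaks had a similar height in both strains, and about 1 in 10 was 2-fold or more apart. Median heights were nearly equal, 28.4 RPKM for Canton-S and 28.7 RPKM for FRT82, and the median log2 ratio was 0.01. The middle 50% of the peaks, between the 25th and the 75th percentile, had log2 ratios from -0.36 to 0.41. At 2-fold or more, 959 peaks (4.94%) were higher in FRT82 and 932 (4.8%) were higher in Canton-S, 1891 (9.74%) in either direction. The largest differences were 7.22-fold in favour of FRT82 and 11.9-fold in favour of Canton-S. At 4-fold or more, 34 peaks were higher in FRT82 and 46 in Canton-S, and at 8-fold or more 0 and 3. The threshold cut through a continuous distribution: the nearest peaks inside it were 2.0002-fold and 2.0004-fold apart, and the nearest outside both 1.9998-fold.

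**Figure D1:**
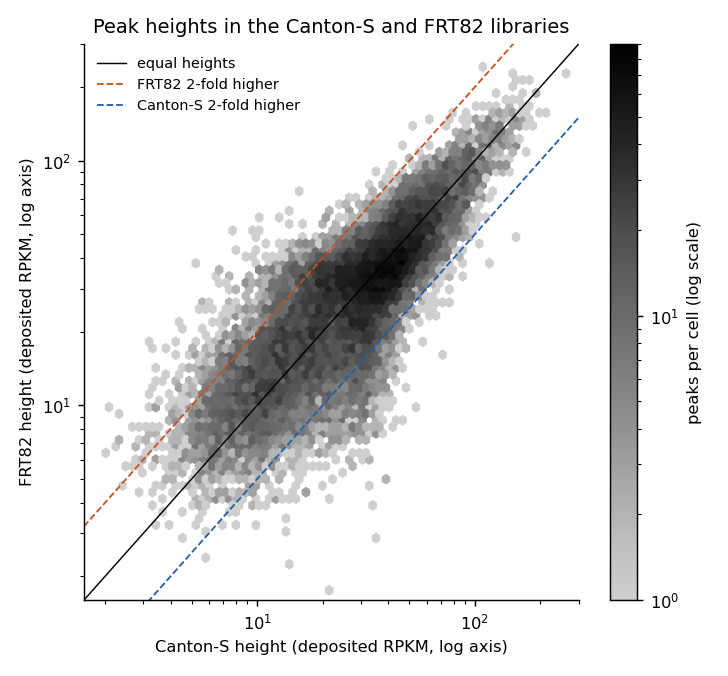
Height of each of the 19424 peaks in Canton-S (horizontal) and FRT82 (vertical), in deposited RPKM on log axes, as cells shaded by the number of peaks. The dashed lines mark 2-fold: 959 peaks lie on or above the upper line and 932 on or below the lower one, and the cloud is widest at middle heights and narrows toward the top.

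The even balance between the directions rested on the authors' normalization. When heights were computed from the deposited counts, with each library's total over the peaks as its depth, 286 peaks (1.47%) were 2-fold higher in FRT82 and 1019 (5.25%) in Canton-S. The share of 2-fold peaks that were higher in FRT82 was 50.7% on the deposited RPKM and 21.9% on the counts. Of the 959 peaks higher in FRT82 on the deposited values, 285 (29.7%) were also 2-fold higher on the counts, whereas 847 (90.9%) of the 932 higher in Canton-S were. The normalization acted on low peaks most. In the lowest decile of height the deposited log2 ratio exceeded the count log2 ratio by a median of 0.39, and in the highest decile it was lower by a median of 0.10 (-0.10). Over all peaks the count scale moved the median log2 ratio by -0.08.

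The spread of the ratios was set beside their counting error. The log2 ratios had a standard deviation of 0.61 over the peaks, the root mean square of their counting errors was 0.31, and the remainder after subtraction of the squares was 0.52. This remainder also holds any shift of the ratio with height, which differed between the deposited and the count scale. On the deposited RPKM the median log2 ratio was 0.14 in the lowest decile of height and 0.02 in the highest. The interval excluded equal heights for 7132 peaks (36.7%). Among the peaks 2-fold or more apart it excluded equal heights for 913 (95.2%) of those higher in FRT82 and 892 (95.7%) of those higher in Canton-S. These shares follow largely from the selection, since the interval rests on the same reads as the ratio that chose the peaks. The interval also takes the normalization as exact. A stricter reading asks that the whole interval lie beyond 2-fold. This held for 95 peaks (0.489%) higher in FRT82 and 80 (0.412%) higher in Canton-S.

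The differences between strains were concentrated among peaks of low and middle mean height. Ranked by the geometric mean of both strains and split into 10 equal groups, 13.1% of the peaks were 2-fold apart in the lowest decile, whose median height was 8.35 RPKM. The share reached 22.7% in the fourth decile, at a median of 20.9 RPKM. It was 4.94% in the sixth decile, at 29.8 RPKM, and 0.823% in the highest decile, at 73.2 RPKM. The rise to the fourth decile was much smaller on the counts. There 1.75% were higher in FRT82 and 10.4% in Canton-S in the lowest decile. These shares were 1.75% and 13.8% in the third decile, and 3.40% and 10.2% in the fourth. Counting error declined from 0.52 log2 units in the lowest decile to 0.15 in the highest. The spread of the log2 ratios was 0.67 in the lowest decile, 0.80 in the third and the fourth, and 0.36 in the highest. The spread beyond counting error was 0.43, 0.72, 0.73 and 0.33 in these 4 deciles. The deciles are formed from the same heights as the ratio, on the normalized scale.

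**Figure D2:**
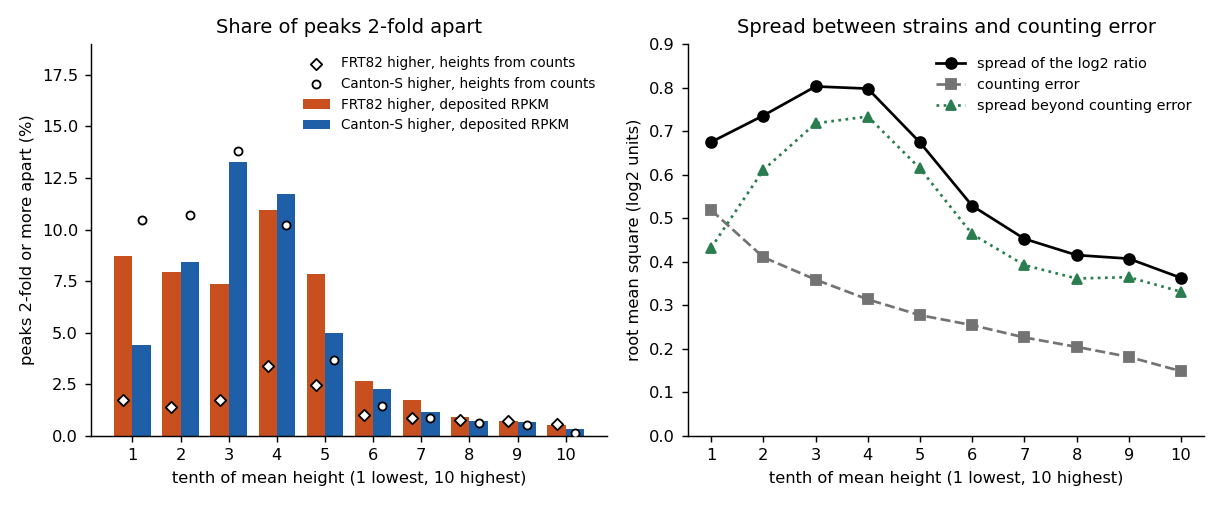
Left, share of peaks 2-fold or more apart (percent) in each decile of mean height, by direction, with bars for the deposited RPKM and open symbols for heights from counts. Right, root mean square of the log2 ratio, of its counting error and of the remainder in the same deciles: the remainder is highest, at 0.73 log2 units, in the fourth decile, while counting error declines throughout.

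The direction of the differences within the low deciles also followed the scaling. In the lowest decile 169 peaks were higher in FRT82 and 86 in Canton-S on the deposited RPKM, against 34 and 203 on the counts. In the third decile both scales had more peaks higher in Canton-S, with 143 and 258 on the deposited RPKM and 34 and 268 on the counts. The scales came together for high peaks. In the highest decile they gave 10 and 6 on the deposited RPKM and 11 and 3 on the counts.

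Because the mean height of the strains is formed from the same values as their ratio, the peaks were also ranked by their height in *D. pseudoobscura* and *D. virilis*, libraries that take no part in the ratio. The share 2-fold apart between the strains then declined at every step, from 18.9% in the lowest decile to 1.39% in the highest. Peaks that were low in the other species were thus those at which the strains differed most often. The ranking is not independent of the strains, however. The peak list gathers the peaks called in every library. A peak low in both other species would therefore be listed mainly through a call in Canton-S or FRT82. How far this selection raised the share was not tested. The spread beyond counting error declined from 0.68 to 0.34 log2 units over the same deciles.

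Short peaks differed more often than long ones. Of the 4477 peaks of 151 to 200 bp, 14.9% were 2-fold apart, against 9.25% of the 3342 peaks of 301 to 400 bp and 0.552% of the 543 peaks longer than 1000 bp. Long peaks hold more reads and were also higher, with a median of 45.9 RPKM above 1000 bp against 21.0 RPKM at 151 to 200 bp. Split at the median length within each decile of height, the shorter peaks had the larger share in all 10 deciles. In the third decile the difference was small, 20.7% against 20.6%, and in the fourth it was 26.6% against 18.8%. The spread beyond counting error was not always the larger for shorter peaks: it was 0.71 log2 units against 0.73 for the longer ones in the third decile, and 0.76 against 0.70 in the fourth.

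The chromosome arms differed little, with the exception of chromosome 4. Relative to the median of all peaks, the median log2 ratio was 0.00 on 2L (3719 peaks), -0.04 on 2R (3930), 0.05 on 3L (4430), 0.02 on 3R (4800) and -0.04 on X (2289). Between 8.87% and 10.3% of the peaks of these 5 arms were 2-fold apart. Chromosome 4, the small, largely heterochromatic autosome on which active genes lie among repeats, had a median of -0.28 over 193 peaks. The order-statistic 95% interval of this median over peaks was -0.33 to -0.16, and on the counts the median was -0.27. With at least 50 reads in each strain it was -0.18. Peaks of 1 library are not replicates of a strain, so the interval belongs to a median over peaks and not to a strain difference. It also takes the peaks as independent, although the ratios of neighbouring peaks resembled each other, as described below. The same limits hold for the intervals of windows.

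Canton-S peaks on chromosome 4 had a median of 27.2 RPKM and FRT82 peaks one of 20.1 RPKM, where all other sequences had 28.4 and 28.7 RPKM. FRT82 was the lower strain at 65.8% of the chromosome 4 peaks and at 49.1% of the others. At 2-fold, 15 of the 193 were higher in Canton-S (7.77%) and 5 in FRT82 (2.59%). The lower values were seen in 8 of the 10 deciles of height. In the fifth decile, for example, the median log2 ratio was -0.46 for 30 peaks of chromosome 4 and 0.07 for the other chromosomes, and in the lowest decile it was 0.15 for 20 peaks and 0.14 for the others. The label P{neoFRT}82B marks an insertion on chromosome 3, and which chromosome 4 each stock carries is not given in the sources used here.

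Along the arms the strain ratio stayed close to the overall median. Of 119 windows of 1 Mb with at least 20 peaks, 100 (84.0%) had a median log2 ratio within 0.15 of that of all peaks. The highest medians were in 3L from 6 to 7 Mb, at 0.28 (interval 0.17 to 0.34, 164 peaks), and in 3R from 15 to 16 Mb, at 0.23 (0.07 to 0.30, 141 peaks). On the counts these were 0.20 and 0.11. The lowest were chromosome 4 from 1 to 2 Mb, at -0.31 (-0.38 to -0.13, 62 peaks), and 2L from 22 to 23 Mb, next to the centromere, at -0.27. The latter holds 29 peaks, and its interval of -0.50 to 0.40 includes 0. The window of 3L from 6 to 7 Mb held 11 peaks 2-fold higher in FRT82 and 7 higher in Canton-S. A window of 2R from 8 to 9 Mb, named after its values were seen, combined a median of -0.22 (-0.32 to -0.14, 210 peaks) with 18 peaks 2-fold higher in Canton-S and 3 higher in FRT82.

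The most proximal part of 3R, the part of the genome with the FRT insertion, did not stand out on this measure. In the first 1 Mb of 3R the median was -0.03 (-0.13 to 0.05) over 213 peaks, with 8 peaks 2-fold higher in FRT82 and 11 higher in Canton-S. The window from 1 to 2 Mb had a median of -0.04 over 168 peaks, with 7 in each direction. The window from 2 to 3 Mb had a median of -0.15 over 147 peaks, with an interval of -0.23 to 0.02.

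**Figure D3:**
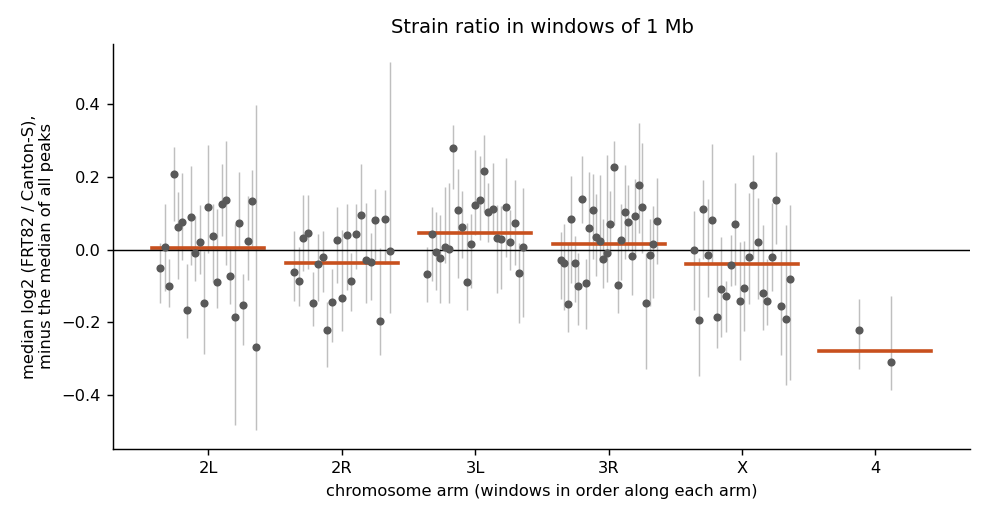
Median log2 ratio of FRT82 over Canton-S in each window of 1 Mb with at least 20 peaks, minus the median of all peaks, in order along each arm. Points are windows, grey lines their order-statistic 95% intervals over peaks, and orange lines the arm medians: 100 of 119 windows lie within 0.15 of 0, and both windows of chromosome 4 lie below -0.2.

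At short range the strain ratios of neighbouring peaks resembled each other. Across pairs of adjacent peaks at most 200 bp apart, Pearson's r of the log2 ratios was 0.43 over 2835 pairs. It was 0.32 at 500 to 1000 bp, 0.17 at 2000 to 5000 bp and 0.07 beyond 10000 bp. Pairs share both libraries, and close peaks can share fragments, so these values are given as a description across peaks. Of the neighbours within 1000 bp of a peak higher in FRT82, 90 of 603 (14.9%) were also 2-fold higher in FRT82 and 12 were 2-fold higher in Canton-S. For peaks higher in Canton-S, 194 of 731 neighbours (26.5%) were 2-fold apart in the same direction and 12 in the other. Both shares lie above the 4.94% and 4.8% of all peaks. At 5000 to 20000 bp they were 8.05% and 8.31%. A pair of 2-fold peaks enters these counts from both sides. The shares were not matched for height, and 2-fold peaks were concentrated at low and middle heights.

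Runs of at least 3 consecutive peaks that were all 2-fold apart in 1 direction held 99 peaks in 26 runs higher in Canton-S and 47 peaks in 15 runs higher in FRT82. The longest had 8 and 4 peaks. On the counts, 22 runs were higher in Canton-S and 4 in FRT82. Differences that spread over several adjoining peaks were thus found in both directions, and the longest had FRT82 lower.

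The longest run lay on 3R from 9625603 to 9631280, in coordinates of FlyBase release 5, as are all positions given here. Its 8 peaks had 61 to 211 reads and 21.6 to 31.5 RPKM in Canton-S, but 6 to 27 reads and 5.07 to 14.7 RPKM in FRT82. The one with the largest difference, at 9628034 to 9628227, had 69 Canton-S reads and 6 FRT82 reads, a log2 ratio of -2.24 (interval -3.73 to -1.04). All 8 intervals excluded equal heights, and all 8 peaks were 2-fold apart on the counts as well. The region ended sharply. The next peaks to the left and right, at 9622158 to 9622931 and 9638462 to 9639170, had 35.8 and 50.8 RPKM in Canton-S and 45.3 and 49.9 RPKM in FRT82. Within the run, FRT82 was the lowest of all 4 libraries at 7 of the 8 peaks, with *D. pseudoobscura* at 9.39 to 30.0 RPKM and *D. virilis* at 5.85 to 19.4 RPKM.

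The second run, on 2L from 17574487 to 17590233, held the peak with the firmest difference of all those higher in Canton-S. That peak, at 17588271 to 17588660, had 174 reads and 34.0 RPKM in Canton-S against 9 reads and 3.96 RPKM in FRT82, 8.60-fold apart with a log2 ratio of -3.10 (-4.26 to -2.15). It was open in the other species too: *D. pseudoobscura* had 26.9 RPKM there and *D. virilis* 19.1 RPKM. The other 6 peaks of the run had log2 ratios of -2.05 to -1.18. A further run of 4 peaks, at 17558349 to 17560731, was 2.24-fold to 4.70-fold higher in Canton-S. All 14 peaks of the stretch that reaches 50 kb to either side of the second run were lower in FRT82, but its 11 peaks past 2-fold are those of these runs, and the other 3 were 1.07-fold to 1.85-fold apart. That stretch was chosen after its values were seen. At its right end a peak at 17621269 to 17621436 was nearly equal, with 92.0 RPKM in Canton-S, against 85.6 in FRT82.

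The third run, on 2R from 18401934 to 18405490, held 5 peaks with 21.95 to 57.4 RPKM in Canton-S, against 7.68 to 27.3 in FRT82, 2.10-fold to 2.86-fold apart. FRT82 was the lowest of the 4 libraries at all 5. Here the flanks graded into the run: 5 of the 6 nearest peaks outside it were also lower in FRT82, by up to 1.92-fold.

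In the other direction, 2 runs of 4 peaks, both on 3R, were the longest. The 4 peaks of the shorter one, from 23046298 to 23048256, had up to 30.8 RPKM in Canton-S, against 27.4 to 61.8 in FRT82, 2.01-fold to 2.60-fold apart, but only 1 of the 4 was 2-fold apart on the counts. The 6 nearest peaks outside were all slightly higher in FRT82, with log2 ratios of 0.08 to 0.62. The other, from 8857023 to 8863771, was 2-fold apart at all 4 peaks on both scales. Its last peak, at 8863604 to 8863771, had 33 reads and 11.3 RPKM in Canton-S against 42 reads and 46.7 RPKM in FRT82, a log2 ratio of 2.04 (1.35 to 2.75). Its tallest, at 8858248 to 8858778, had 30.9 and 67.2 RPKM. The peak just before the run, at 8856653 to 8856992, went the other way, with 41.0 RPKM in Canton-S, against 28.7 in FRT82. The third run was short, on 2R from 9862375 to 9862970, with 3 peaks of 3.20 to 9.10 RPKM in Canton-S, against 17.1 to 40.2 in FRT82, which rested on 12 to 29 and 16 to 35 reads.

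**Figure D4:**
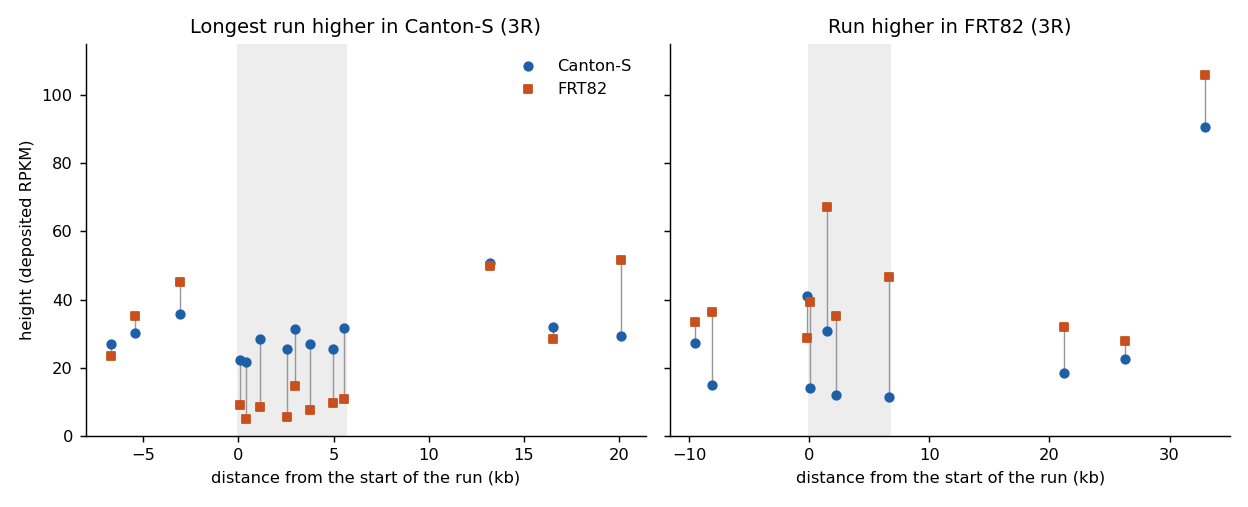
Height (deposited RPKM) of each peak in Canton-S (circles) and FRT82 (squares) in the longest run higher in Canton-S (left) and in the run on 3R from 8857023 that was higher in FRT82 (right), with the 3 nearest peaks on each side, against distance from the run's start in kb. The grey band marks the run: all 8 peaks on the left drop to 14.7 RPKM or less in FRT82 between flanking peaks that are at most 1.76-fold apart.

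Single peaks were ranked by the bound of their interval that lies nearest to equal heights. The 10 firmest differences in favour of FRT82 were 4.63-fold to 7.22-fold apart on the deposited RPKM and 3.61-fold to 4.91-fold on the counts. They were short, 164 to 434 bp, with 5.35 to 16.1 RPKM in Canton-S, against 34.0 to 74.5 in FRT82. The first, on 2R at 18817912 to 18818100, had 28 reads and 7.89 RPKM in Canton-S against 52 reads and 51.6 RPKM in FRT82, a log2 ratio of 2.71 (2.02 to 3.43). FRT82 thus had more reads there although its library was the shallower one. The other species were near the Canton-S level, with at most 12.9 RPKM.

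The peak with the largest fold in favour of FRT82 lay on 2L at 25612 to 25776, near the tip of the arm, with 17 Canton-S reads and 34 FRT82 reads (2.85, 1.97 to 3.78). One of the best covered, on 2R at 19319764 to 19320198, had 112 reads and 16.1 RPKM in Canton-S and 169 reads and 74.5 RPKM in FRT82, with 21.1 RPKM in *D. pseudoobscura* and 38.2 in *D. virilis*. Another, on 3L at 12909008 to 12909197, was high in FRT82 alone: it had 59.8 RPKM there, 10.4 RPKM in Canton-S, 4.78 RPKM in *D. pseudoobscura* and, similarly, 5.94 RPKM in *D. virilis*. A different pattern was seen on 2L at 2415154 to 2415441, where Canton-S was the lowest library at 9.65 RPKM, against 51.3 RPKM in FRT82, 32.8 RPKM in *D. pseudoobscura* and, close to that, 39.0 RPKM in *D. virilis*.

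The 10 firmest differences in favour of Canton-S were 4.24-fold to 11.9-fold apart on the deposited RPKM and 3.77-fold to 10.2-fold on the counts. Their heights were 20.8 to 70.5 RPKM in Canton-S, against 1.75 to 16.6 in FRT82. The best covered, on 3L at 21877016 to 21878026, is 1010 bp long and had 677 reads and 52.1 RPKM in Canton-S against 59 reads and 9.99 RPKM in FRT82, a log2 ratio of -2.38 (-2.79 to -1.998). It had 22.3 RPKM in *D. pseudoobscura*, and in *D. virilis* it had 12.1 RPKM. The lowest FRT82 counts were 2 reads on 2L at 15441763 to 15441921, against 49 in Canton-S, and 3 reads on 3L at 10235091 to 10235259, against 75. Their log2 ratios of -3.57 and -3.56 have wide intervals, -6.65 to -1.64 and -5.87 to -1.95. A peak on 3L at 7349181 to 7349815 had 547 Canton-S reads and 59 FRT82 reads, 70.5 and 16.6 RPKM. It opened a run of 5 peaks that reaches 7354969.

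High peaks that differed 2-fold were few and could be named. In the highest decile of height there were 10 higher in FRT82, all of them 2-fold apart on the counts too, and 6 higher in Canton-S, of which 3 were. The highest peak of all in FRT82, on 2R at 18821468 to 18822478, had 1318 reads and 111.5 RPKM in Canton-S against 1264 reads and 241.8 RPKM in FRT82, a log2 ratio of 1.12 (1.00 to 1.23). It stood at 95.1 RPKM in *D. pseudoobscura*, with 82.8 RPKM in *D. virilis*. The adjoining peak, at 18822604 to 18823559, had 46.4 RPKM in Canton-S, against 111.7 in FRT82. Both lie close to the peak at 18817912 with the firmest difference in favour of FRT82. Of the 11 peaks within 25 kb of the highest one, 4 were 2-fold higher in FRT82, 0 were 2-fold higher in Canton-S and 5 were lower in FRT82, and the raised peaks were not all adjacent. These peaks of the highest decile and this stretch were chosen after their values were seen.

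The highest peak in Canton-S, on 3R at 13526414 to 13526638, did not differ 2-fold, with 272.2 RPKM in Canton-S, against 223.8 in FRT82. Among the high peaks with FRT82 lower, a pair on 3L in the run from 7349181 stood out. The first, at 7353475 to 7353747, had 159.9 RPKM in Canton-S, against 47.8 in FRT82, close to the 48.0 RPKM of *D. pseudoobscura* and below the 60.2 RPKM of *D. virilis*. The second, at 7353882 to 7354457, had 113.8 and 38.0 RPKM.

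The gene windows named in the study were described peak by peak. They hold 28 peaks, and all 6 gene symbols were found in the RefSeq gene table, *Dscam* as *Dscam1*. At *so* (*sine oculis*), which encodes a Six-family homeodomain factor of the network that specifies the retina, 10 peaks lie on 2R between 3306026 and 3320876. Their log2 ratios ran from -0.79 to 1.16, with a median of 0.36, and 7 of the 10 were higher in FRT82. Over all peaks the median was 0.01, and 9.74% were 2-fold or more apart. The tallest peaks differed little: 109.6 RPKM in Canton-S, against 89.7 in FRT82 at 3306026 to 3306340, and 75.7 and 89.0 RPKM at 3316898 to 3317380. A single peak passed 2-fold, at 3318823 to 3319211, with 124 reads and 21.6 RPKM in Canton-S against 101 reads and 48.3 RPKM in FRT82 (1.16, 0.77 to 1.55). Its right-hand neighbour, at 3319683 to 3320039, was 1.97-fold higher in FRT82. On the counts a second peak, at 3320590 to 3320876, passed 2-fold in the other direction, 2.16-fold lower in FRT82 on 53 and 10 reads.

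At *scrt* (*scratch*), which encodes a zinc-finger factor expressed in differentiating neurons, all 5 peaks were lower in FRT82 and 3 of them 2-fold or more, where 4.8% of all peaks were. On the counts the one at 3978581 to 3979130 was 1.99-fold apart and fell short of 2-fold. They lie on 3L between 3978581 and 3984326 and together held 631 reads in Canton-S and 112 in FRT82. The firmest, at 3983143 to 3983509, had 167 reads and 34.8 RPKM in Canton-S against 17 reads and 7.83 RPKM in FRT82, a log2 ratio of -2.15 (-2.97 to -1.43). The peaks on either side of it had log2 ratios of -1.21 (-1.96 to -0.53) and -0.55 (-2.12 to 0.75). The peaks at the ends of the window were 2.10-fold and 1.79-fold higher in Canton-S. The peak at 3980182 to 3980355, with 28 and 6 reads, was the only one of the 5 whose interval included equal heights. In *D. pseudoobscura* and *D. virilis* the firmest peak had 24.5 and 19.7 RPKM, so FRT82 was the lowest library there.

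At *how* (*held out wings*), which encodes an RNA-binding protein of the STAR family, 9 peaks lie on 3R between 17867245 and 17906148. Their median log2 ratio was 0.14, and 1 of the 9 was 2-fold or more apart, where 9.74% of all peaks were. The broad peak at 17867863 to 17869118 had 41.2 RPKM in Canton-S, against 45.3 in FRT82. A peak at 17876881 to 17877216 was 2.48-fold higher in FRT82, with 68 and 51 reads and 11.7 and 29.0 RPKM, and on the counts its log2 ratio was 0.88, short of 2-fold. The peak just before it in position, at 17876550 to 17876852, differed 1.27-fold.

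**Figure D5:**
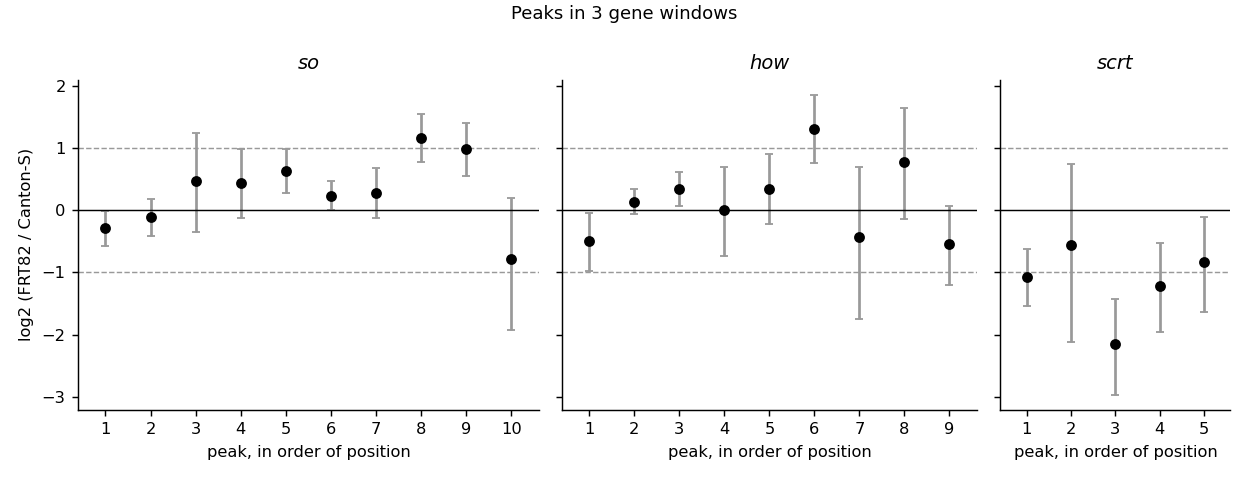
Log2 ratio of FRT82 over Canton-S at the peaks in the windows of *so* (10 peaks), *how* (9) and *scrt* (5), in order of position, with 95% intervals that cover counting error only and dashed lines at 2-fold. One peak of *so* and 1 of *how* lie above the upper line, and 3 peaks of *scrt* lie below the lower one.

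The remaining windows hold 4 peaks, none of them 2-fold apart. At *pdm3*, which encodes a POU-homeodomain factor, 2 adjoining peaks on 2R went in opposite directions. The peak at 4281825 to 4282158 had 49.5 RPKM in Canton-S, against 61.8 in FRT82, and the peak at 4282213 to 4282442 had 40.7 and 25.6 RPKM. Both were far lower in *D. pseudoobscura* and *D. virilis*, at 6.67 to 8.39 RPKM. The peak at *fred* (*friend of echinoid*), a cell adhesion gene of the immunoglobulin superfamily, on 2L at 3933766 to 3933989, had 131 reads and 45.4 RPKM in Canton-S and 74 reads and 62.7 RPKM in FRT82. In the other species it had 6.38 and 3.44 RPKM. For *Dscam*, which encodes an immunoglobulin-superfamily receptor with very many splice forms, the peak on 2R at 3258671 to 3258844 had 44.2 RPKM in Canton-S, 70.2 RPKM in FRT82, 30.8 RPKM in *D. pseudoobscura*, and only 5.45 RPKM in *D. virilis*. At *pdm3*, *fred* and *Dscam* the difference between the strains was smaller than the difference of either strain from *D. virilis*. In the paper, *pdm3* and *fred* are examples of peaks gained in *D. melanogaster*. At these 2 genes the contrast therefore follows from the choice of the windows. The *Dscam* enhancer is the paper's example of a lost Atonal binding site and lost reporter activity in *D. virilis*. It was not chosen there by its peak height.

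The heights in the other species were then set beside the strain classes. Peaks higher in FRT82 had medians of 12.0 RPKM in Canton-S, 29.9 RPKM in FRT82, 18.7 RPKM in *D. pseudoobscura* and 18.5 in *D. virilis*. Peaks higher in Canton-S had medians of 29.8, 11.1, 23.0 and 18.7 RPKM in the same order. The geometric mean of the other species lay nearer to Canton-S at 591 of the 932 peaks higher in Canton-S (63.4%), and nearer to FRT82 at 514 of the 959 higher in FRT82 (53.6%). Among the peaks under 2-fold it lay nearer to Canton-S at 49.2%. These shares are given on the deposited RPKM only, and most peaks higher in FRT82 were not 2-fold apart on the counts.

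The 2 classes also differed in how far *D. pseudoobscura* and *D. virilis* stood apart from each other, a ratio that shares no library with the strain ratio. These species were 2-fold or more apart at 53.5% of the peaks higher in FRT82, 32.8% of those higher in Canton-S and 38.6% of the rest. With all heights computed from the counts the shares were 45.8%, 40.0% and 39.6%, so that most of the contrast depended on the deposited normalization. Height matters for this share, since low peaks were more often apart between species. All libraries contributed to the peak list, so a peak low in both strains would be listed mainly through a call in either of these species. Such a selection favours peaks that are apart between them, and its extent was not tested. The deposited heights were also normalized between libraries. Within the 7 lower deciles of height, which hold 95.6% and 96.5% of the 2 classes, the share was above that of the rest in 6 deciles for peaks higher in FRT82 and in 0 for peaks higher in Canton-S. In the third decile, for example, it was 59.4%, 32.9% and 54.1%. In the eighth and the highest decile the share was above that of the rest for both classes, and in the ninth for neither. Each class there had 6 to 18 peaks a decile. The shares by decile are given on the deposited RPKM only. Peaks higher in FRT82 were also the more isolated, with a median of 874 bp to the nearest peak, against 576 bp for those higher in Canton-S and 499 bp for the rest. These distances were not matched for height, and they too are given for the classes on the deposited RPKM only.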

How the data were processed

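FAIRE-Seq libraries were compared between Canton-S and FRT82, with 1 library each, grouped by their labelled genotype. The authors mapped the reads of both strains with Bowtie2 to FlyBase release 5. Reads of *D. pseudoobscura* and *D. virilis* were mapped to their own genomes and converted to release 5 coordinates with liftOver (minMatch 0.1). Peaks were called in each library with F-Seq (length 200), gathered in a single list and counted with HTSeq. Regions without counts in a species were left out, and peaks were filtered at 1 RPKM in 3 species and at lengths over 150 bp. Counts were deposited as whole, unscaled reads. The deposited RPKM are counts per length and depth that the authors normalized within and between libraries, in the way used for gene expression; the exact algorithm is not given in the sources used here. Of the Canton-S RPKM, 63.9% occur exactly among the FRT82 values, as when libraries are given one common distribution. Peak length is end minus start.

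From these were computed log2 ratios, Clopper-Pearson 95% intervals (checked on simulated data), medians with order-statistic intervals, deciles of height, windows of 1 Mb and runs of at least 3 peaks. No count model or test was used, as 1 library a strain has no replicate error. The named peaks are those in the windows the study prints for 6 genes, the 10 in each direction whose interval's near bound is farthest from equal heights, up to 3 longest runs a direction, the 2 highest and 2 lowest windows, and each strain's highest peak. The comparison, threshold and lists were chosen with earlier results of these data known. Alternatives were other scalings, a pseudocount of 1, read minimums, other folds, intervals and windows, and leaving out X, chromosome 4 and heterochromatin. Gene symbols were looked up in RefSeq's release 6 table, and no coordinates were converted for this lookup. The release 5 sequence and its gene models were not used here: no sequence is shown and peaks outside the gene windows carry no gene name. All columns of values per sample were assigned, and 0 were left unused. Python 3.11.15, numpy 2.4.6, pandas 2.3.3, scipy 1.17.1 and matplotlib 3.10.9 were used.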

Additional observations from a re-analysis of the deposited data

How the results depend on the processing

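No paired analysis was possible because each strain has 1 library. The scaling moved the 959 peaks higher in FRT82 to 286 with heights from counts, 396 with counts scaled by the median ratio and 435 with quantile normalization of counts per kilobase, while the 932 higher in Canton-S were 1019, 854 and 568. With the interval required to exclude equal heights the former were 279, 383 and 408, and under quantile normalization the latter were 517. At least 50 reads in each strain left 322 and 32 peaks, with or without the interval rule; this filter removes peaks that are low in the shallower library. At least 150 reads in both strains together, chosen after seeing the data, left 191 and 259. At 1.5-fold 3215 and 2725 peaks differed, at 3-fold 124 and 187, and at 4-fold 34 and 46. Runs higher in FRT82 numbered 15, but 4 on the counts, 184 at 1.5-fold and 1 at 3-fold; those higher in Canton-S numbered 26, and 113 and 2 at these folds. The median of X was -0.071 with at least 50 reads in each strain, and the lowest median was -0.76 in windows of 0.5 Mb. The share of peaks 2-fold apart between the other species was 45.8% and 40.0% on the counts for the FRT82-higher and Canton-S-higher peaks. The causes were not tested. Of the 80 named peaks, 3 moved by more than their interval on the counts, and of those 2-fold apart none changed direction. Of the lowest decile of height, 7 peaks had 50 reads in each strain, so no share is given for it. Depth in FRT82 limits the low peaks.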

Other observations

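The 63 peaks on heterochromatic and unplaced sequences were low in both strains, with a median of 13.6 RPKM in Canton-S, against 14.7 in FRT82. Of these, 5 were 2-fold higher in FRT82 and 2 in Canton-S, and FRT82 was the lower strain at 54.0% of them.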
